A study of Homo sapiens with 4 samples.

Results

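Of the 370 reference sequences that the base counts covered, 22 were mitochondrial tRNAs, and 13 of these carry an adenosine at position 9 (A9) and are not mtThr. They are the references whose name starts with mt and whose base at position 9, counted from the 5′ end, is A, with mtThr left out by rule. They decode alanine, arginine, asparagine, aspartate, glutamate, glycine, histidine, leucine (TAG anticodon), lysine, phenylalanine, proline, tryptophan and valine. Total RNA from HEK293T, an established line of human embryonic kidney cells, was sequenced after treatment with E. coli AlkB or with no enzyme, which asks at which tRNA positions each enzyme mixture erases the methylation signature. Each of the 4 treatments has 1 library: no enzyme, AlkB of wild type (WT), and 2 mixtures, WT plus D135S and WT plus D135T, in which a point mutant of AlkB was added to WT. In the treated libraries, 1 µg of RNA was incubated for 2 h at pH 5.0 with 20 µM WT and, in the mixtures, a further 20 µM of the mutant, so the mixtures held more total enzyme than WT alone. The labels say that barcoded samples were pooled ahead of the AlkB step, although they also give the libraries different treatments, and the treatment labels were followed here. With 1 library per treatment there is no replicate, and each test below compares the reads of libraries, not the treatments.

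In mitochondria the methyltransferase TRMT10C, working with SDR5C1 in the complex that also holds the tRNA-processing enzyme PRORP, methylates the N1 position of the purine at position 9, giving m1A9 or m1G9. The methyl group lies on the Watson-Crick edge of the base, so reverse transcriptase stops there or inserts a wrong base, and the share of wrong bases at the site, the mutation rate, is read as a signature of the methylation. AlkB is an oxidative demethylase that can remove such methyl groups and so restore a base that can be read. Per the paper, WT prefers m1A and m3C and acts poorly on m1G in RNA, on which the D135S mutant is more active. It also reports purified D135T as more active than D135S on m1G in a short RNA. In tRNA-seq it describes removal by D135T and D135S as similar, with differences at some sites.

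The sequences around A9 are shown because they set how substitutions and deletions at the site are written. Each line gives the first 20 bases of a reference, 5′ to 3′, as it stands in the deposited base counts, with A9 in capitals.
mtAlaTGC: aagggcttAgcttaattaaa
mtArgTCG: tggtatatAgtttaaacaaa
mtAsnGTT: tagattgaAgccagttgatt
mtAspGTC: aaggtattAgaaaaaccatt
mtGluTTC: gttcttgtAgttgaaataca
mtGlyTCC: actcttttAgtataaatagt
mtHisGTG: gtaaatatAgtttaaccaaa
mtLeuTAG: acttttaaAggataacagct
mtLysTTT: cactgtaaAgctaacttagc
mtPheGAA: gtttatgtAgcttacctcct
mtProTGG: cagagaatAgtttaaattag
mtTrpTCA: agaaatttAggttaaataca
mtValTAC: cagagtgtAgcttaacacaa
G followed A9 in 13 of 13 sequences. T preceded it in 10, and A preceded it in mtAsnGTT, mtLeuTAG and mtLysTTT. In mtLeuTAG and mtLysTTT, A9 closed a run of 3 A, so that a deletion in the run has no fixed place. All 13 references, without their CCA end, matched the mitochondrial genome of GRCh37 once, and each match fell on the annotated tRNA gene. On the plus strand lay MT-TF (chrM:577-647), MT-TV (chrM:1602-1670), MT-TW (chrM:5512-5579), MT-TD (chrM:7518-7585) and MT-TK (chrM:8295-8364). MT-TG (chrM:9991-10058), MT-TR (chrM:10405-10469), MT-TH (chrM:12138-12206) and MT-TL2 (chrM:12266-12336) lay on the same strand. On the minus strand lay MT-TA (chrM:5587-5655), MT-TN (chrM:5657-5729), MT-TE (chrM:14674-14742) and MT-TP (chrM:15956-16023). They are tRNA genes without introns or UTRs.

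All base calls came to 14780426 with no enzyme, 25370988 in the WT library, 32277810 in the D135S mixture and 35316887 in the D135T mixture, and the 13 references took 14.3%, 7.60%, 5.01% and 5.97% of them. No position held more than 8027 reads, so the depth had a ceiling, which mtValTAC reached. At A9 the median base calls over the 13 were 275, 451, 359 and 589. At least 100 base calls at A9 in each library were found for 11 references, and mtAlaTGC and mtTrpTCA had 87 and 53 with no enzyme. The mutation rate is the number of substituted over all base calls, given with its 95% Wilson interval in parentheses, which covers counting error only.

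A9 was substituted in most reads of most of these tRNAs with no enzyme, and in few reads after AlkB. The median mutation rate over the 11 references was 0.738 with no enzyme (range 0.320 to 0.884), 0.0755 in the WT library (0.0169 to 0.493), 0.0257 in the D135S mixture (0 to 0.399) and 0.0476 in the D135T mixture (0.0127 to 0.376). In each enzyme library, the rate was called lower than with no enzyme at 11 of 11 sites by a two-sided Fisher's exact test, with p-values adjusted by Benjamini-Hochberg over the 587 positions tested of all references. Calls were made at an adjusted p under 0.05 with rates at least 0.05 apart. Over all positions tested, 33.6% were lower with WT, 38% in the D135S mixture and 37.6% in the D135T mixture. The rate fell from its no-enzyme value by a median of 89.8% with WT, 96.5% in the D135S mixture and 93.4% in the D135T mixture, and the smallest of these falls, 44.2%, 54.9% and 57.4%, were in mtArgTCG. With a minimum of 500 base calls, 4 sites were left to test, and 4 were lower in each enzyme library.

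**Figure D1:**
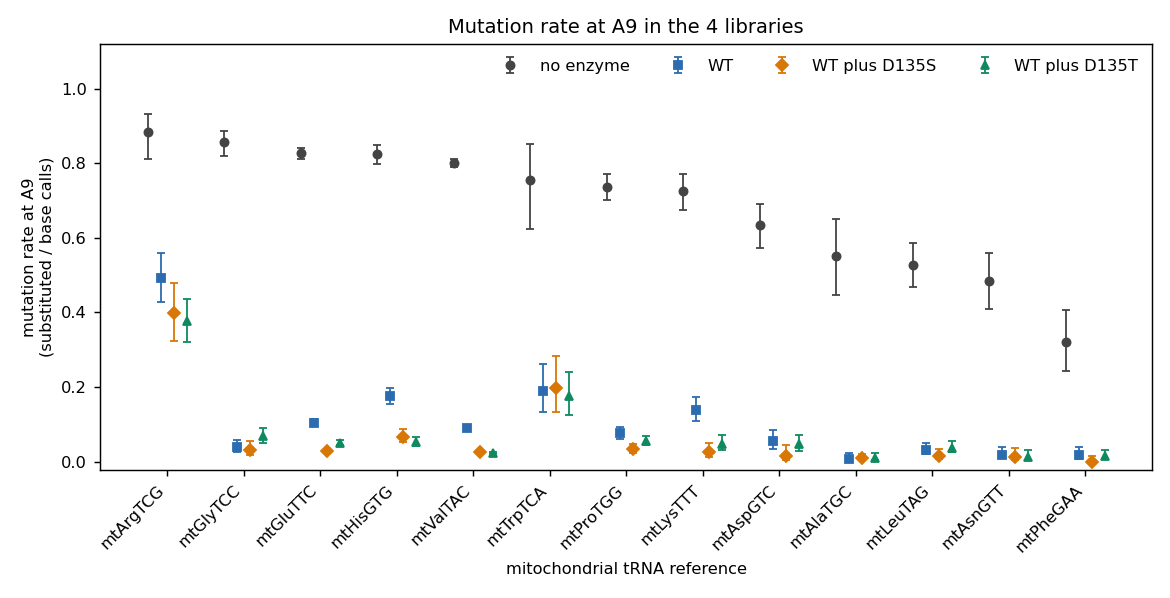
Mutation rate at A9 (substituted over base calls, y axis) for the 13 references (x axis, in the order of the no-enzyme rate) in the 4 libraries, with 95% Wilson intervals as bars. The no-enzyme points lie between 0.320 and 0.884, and the enzyme points lie below 0.2 except those of mtArgTCG.

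The best covered members were the valine and glutamate tRNAs, with 6440, 7871, 7925 and 7972 base calls at A9 of mtValTAC and 2387, 3773, 4175 and 3780 at A9 of mtGluTTC, in the order no enzyme, WT, WT plus D135S, WT plus D135T. In mtValTAC the mutation rate was 0.801 (0.791 to 0.810) with no enzyme, 0.0910 (0.0848 to 0.0975) in the WT library, 0.0257 (0.0225 to 0.0295) in the D135S mixture and 0.0232 (0.0201 to 0.0267) in the D135T mixture. In mtGluTTC the rate came to 0.827 (0.811 to 0.842) with no enzyme, 0.104 (0.0946 to 0.114) in the WT library, 0.0292 (0.0245 to 0.0348) in the D135S mixture and 0.0497 (0.0433 to 0.0571) in the D135T mixture. Both tRNAs were read mostly with a wrong base with no enzyme, and in both the intervals of the 2 mixtures lay below that of WT.

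Histidine, lysine and proline tRNAs also kept a visible residue with WT alone. The rate of mtHisGTG was 0.825 (0.797 to 0.850) with no enzyme, 0.175 (0.154 to 0.197) in the WT library, 0.0667 (0.0513 to 0.0862) in the D135S mixture and 0.0530 (0.0426 to 0.0658) in the D135T mixture. That of mtLysTTT was 0.726 (0.675 to 0.772) with no enzyme, 0.137 (0.109 to 0.172) in the WT library, 0.0257 (0.0131 to 0.0499) in the D135S mixture and 0.0476 (0.0317 to 0.0710) in the D135T mixture. That of mtProTGG was 0.738 (0.702 to 0.771) with no enzyme, 0.0755 (0.0617 to 0.0921) in the WT library, 0.0330 (0.0233 to 0.0464) in the D135S mixture and 0.0546 (0.0436 to 0.0681) in the D135T mixture. The intervals of both mixtures lay below that of WT for mtHisGTG and mtLysTTT, and for mtProTGG only the interval of the D135S mixture did.

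In the glycine, aspartate and leucine tRNAs WT alone left low rates. The rate of mtGlyTCC was 0.856 (0.820 to 0.886) with no enzyme, 0.0379 (0.0249 to 0.0573) in the WT library, 0.0306 (0.0172 to 0.0540) in the D135S mixture and 0.0674 (0.0507 to 0.0890) in the D135T mixture. That of mtAspGTC was 0.633 (0.573 to 0.690) with no enzyme, 0.0542 (0.0346 to 0.0841) in the WT library, 0.0151 (0.00514 to 0.0434) in the D135S mixture and 0.0458 (0.0295 to 0.0704) in the D135T mixture. That of mtLeuTAG was 0.527 (0.468 to 0.585) with no enzyme, 0.0324 (0.0210 to 0.0495) in the WT library, 0.0160 (0.00776 to 0.0326) in the D135S mixture and 0.0371 (0.0252 to 0.0542) in the D135T mixture. The intervals of the 3 enzyme libraries overlapped within each of these tRNAs.

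The asparagine and phenylalanine tRNAs had the lowest no-enzyme rates among the 11. The rate of mtAsnGTT was 0.485 (0.410 to 0.560) with no enzyme, 0.0183 (0.00844 to 0.0394) in the WT library, 0.0123 (0.00421 to 0.0357) in the D135S mixture and 0.0127 (0.00496 to 0.0323) in the D135T mixture. That of mtPheGAA was 0.320 (0.244 to 0.407) with no enzyme, 0.0169 (0.00724 to 0.0389) in the WT library, 0 (0 to 0.0145) in the D135S mixture and 0.0139 (0.00593 to 0.0320) in the D135T mixture. With WT plus D135S, 0 of 261 base calls in mtPheGAA were substituted, which allows a rate of up to 0.0115 by the limit of 3 calls, a one-sided bound, and up to 0.0145 by the Wilson interval.

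The arginine tRNA stood apart from the others in its residue. The rate of mtArgTCG was 0.884 (0.811 to 0.931) with no enzyme, 0.493 (0.427 to 0.559) in the WT library, 0.399 (0.323 to 0.479) in the D135S mixture and 0.376 (0.321 to 0.435) in the D135T mixture, on 112, 215, 148 and 271 base calls. Its no-enzyme rate was the highest of the 11, although its interval met that of mtGlyTCC, and its rates with enzyme were above those of every other member in every enzyme library. In the order of the no-enzyme rates, mtArgTCG, mtGlyTCC, mtGluTTC, mtHisGTG, mtValTAC, mtProTGG, mtLysTTT, mtAspGTC, mtLeuTAG, mtAsnGTT and mtPheGAA, the intervals of neighbours overlapped except between mtValTAC and mtProTGG and between mtAsnGTT and mtPheGAA.

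The 2 members under 100 base calls with no enzyme were not tested. The rate of mtAlaTGC was 0.552 (0.447 to 0.652) with no enzyme, 0.00629 (0.00173 to 0.0226) in the WT library, 0.00876 (0.00402 to 0.0190) in the D135S mixture and 0.0102 (0.00468 to 0.0220) in the D135T mixture. The rate of mtTrpTCA was 0.755 (0.624 to 0.851) with no enzyme, 0.190 (0.134 to 0.263) in the WT library, 0.198 (0.133 to 0.284) in the D135S mixture and 0.176 (0.125 to 0.241) in the D135T mixture. The alanine tRNA was at 0.0102 or less in each enzyme library, while the tryptophan tRNA was at 0.176 or more. With the depth minimum set at 20 base calls, both were called lower in each enzyme library, which made 13 of 13.

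The substituted A9 was read mainly as T or G with no enzyme, and rarely as C. Over the 11 references, T made up a median of 48.1% of the substituted calls with no enzyme (range 16.5% to 79.5%), G 43.2% (20.2% to 82.3%) and C 6.92% (0% to 10.5%). T was the base read most in 7 of the 11 and G in 4. At the ends of this range, the aspartate tRNA was read as G in 82.3% of its substituted calls and the phenylalanine tRNA as T in 79.5%. With WT plus D135T, T was read most in 10 of the 11. With WT plus D135S it was read most in 9 of the 10 with a substituted call. Some of these members had few substituted calls, such as 3 each in mtAsnGTT and mtAspGTC with D135S. With D135T, mtAsnGTT had 4 and mtPheGAA 5. The median share of C was 10.8% in the D135S mixture and 16.9% in the D135T mixture.

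In the arginine and tryptophan tRNAs, the substituted reads of the enzyme libraries were nearly all T. In mtArgTCG, T made up 78.8% of the substituted calls with no enzyme (95% Wilson interval 69.7% to 85.7%), 98.1% in the WT library (93.4% to 99.5%), 100% in the D135S mixture (93.9% to 100%) and 94.1% in the D135T mixture (87.8% to 97.3%). In mtTrpTCA, the share was 32.5% with no enzyme (20.1% to 48.0%), 96.3% in the WT library (81.7% to 99.3%), 100% in the D135S mixture (84.5% to 100%) and 100% in the D135T mixture (88.3% to 100%). The calls read as G fell from 20 of 112 to 2 of 215 with WT in mtArgTCG and from 26 of 53 to 1 of 142 in mtTrpTCA. Those read as T were 78 of 112 with no enzyme and 104 of 215 with WT in mtArgTCG, and 13 of 53 and 26 of 142 in mtTrpTCA. In mtProTGG, T also made up 93.5% of the 31 substituted calls in the D135S mixture. The mean mapping quality of the T reads of mtArgTCG was 17.8 with no enzyme and 18.3, 20.0 and 17.5 with enzyme, against 22, 21.2, 20.1 and 28.7 for its A reads. In mtTrpTCA it was 26.5, 28.2, 24.1 and 28.5 for T reads and 29.8, 34.2, 31.3 and 30.9 for A reads. Low mapping quality was not particular to these tRNAs. In mtValTAC it was 15.5, 13.7, 18.8 and 14.4 for T reads and 16.1, 11.3, 14.6 and 11.6 for A reads. The part of read placement in the residue was not tested.

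Deletions marked A9 in some members and not in others. The share of reads with a deletion that removed A9, or that lay in the run of A ending there, was 0.287 in mtAlaTGC with no enzyme (35 of 122 reads) and 0.00935, 0 and 0.00338 in the 3 enzyme libraries. It was between 0.0677 and 0.106 in mtGlyTCC, mtLeuTAG, mtValTAC, mtGluTTC and mtLysTTT with no enzyme, and at most 0.0240 in the 6 others of the 11. With enzyme, it was at most 0.0167 in any of the 13 in any library. In mtLeuTAG and mtLysTTT the deletions were written at position 7, the first A of the run, and A7 itself had mutation rates of 0.131 and 0.135 with no enzyme, against 0.0105 and 0.0304 with WT, 0.00946 and 0.00673 in the D135S mixture, and 0.0129 and 0.0229 in the D135T mixture.

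**Figure D2:**
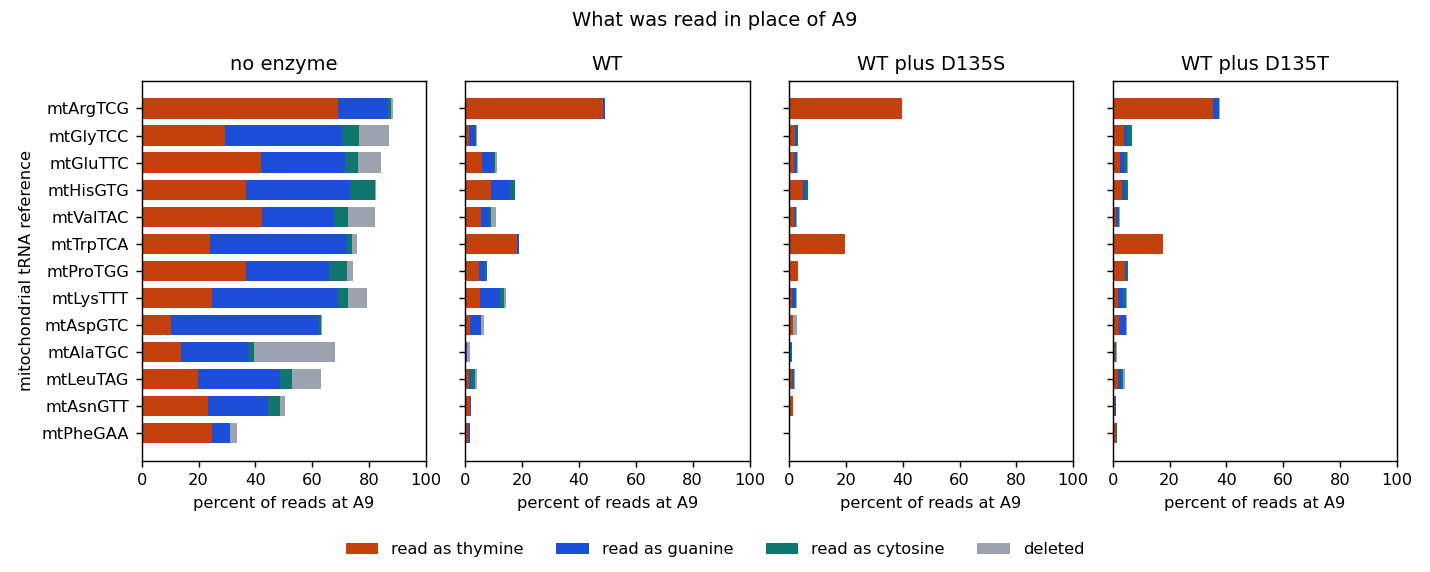
Percent of reads at A9 (x axis) that were read as another base or carried a deletion, for the 13 references (y axis) in each library, with deletions in the run of A that ends at A9 included. In the enzyme panels the bars of mtArgTCG and mtTrpTCA consist almost wholly of reads as thymine, and mtAlaTGC has the longest deletion segment with no enzyme, a share of 0.287.

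Reads that stopped before A9 carry no base there, so the mutation rate is a value among reads that reached A9. Not all of these went on to position 8. With no enzyme, mtHisGTG had 788 base calls at A9 and 539 at position 8, and mtProTGG had 633 and 468. The calls at A9 were the fewer in mtAlaTGC, mtGlyTCC and mtValTAC. The base calls at position 8 as a percent of those at position 11 served as a measure of how many continued. Over the 13 references, the median was 25.2% with no enzyme (range 5.86% to 81.7%), 79.2% in the WT library (13.9% to 99.7%), 87.0% in the D135S mixture (18.2% to 98.1%) and 84.4% in the D135T mixture (21.6% to 99.9%). In 13 of 13 references the 95% Wilson interval of each enzyme library lay above that with no enzyme. In mtValTAC the calls were near the depth ceiling at position 11 in all 4 libraries and at position 8 in the enzyme libraries, so its values, the highest of the range with no enzyme among them, are bounded by the ceiling. The order of the enzyme medians depended on the positions chosen, since with position 5 over position 14 they were 67.2% with WT, 78.7% with D135S added and 64.7% with D135T added, which put D135T below WT.

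The stop at position 9 was strongest in the arginine tRNA and much weaker in the glutamate tRNA. In mtArgTCG, 5.86% with no enzyme, 13.9% in the WT library, 18.2% in the D135S mixture and 21.6% in the D135T mixture of the reads continued. In mtGluTTC, 49.7% with no enzyme, 85.3% in the WT library, 89.2% in the D135S mixture and 86.9% in the D135T mixture did. The arginine tRNA was the lowest of the 13 in each library. It had 112, 215, 148 and 271 base calls at A9, against 55, 111, 92 and 167 at position 8. Many of its calls at A9 thus came from reads without a call at position 8, and their part in its residue was not tested.

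Proline, lysine and histidine tRNAs, with no-enzyme values of 16.03% to 18.9%, showed differences between the enzyme libraries. In mtProTGG the percent was 16.03% with no enzyme, 56.8% in the WT library, 74.2% in the D135S mixture and 71.0% in the D135T mixture. In mtLysTTT it was 17.3% with no enzyme, 49.3% in the WT library, 76.2% in the D135S mixture and 64.98% in the D135T mixture. In mtHisGTG it was 18.9% with no enzyme, 51.7% in the WT library, 62.6% in the D135S mixture and 68.8% in the D135T mixture. The value of WT alone was the lowest of the 3 enzyme values in each of these tRNAs. It was not the lowest in mtTrpTCA, where the percent was 17.2% with no enzyme, 79.2% in the WT library, 78.5% in the D135S mixture and 84.7% in the D135T mixture and the intervals of the enzyme libraries overlapped. Against WT, the interval of WT plus D135S lay above in 6 of 13 references and below in 1, mtValTAC, and that of WT plus D135T lay above in 7 and below in 0. Between the mixtures, the interval of D135T lay above that of D135S in 2 references and below in 3.

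**Figure D3:**
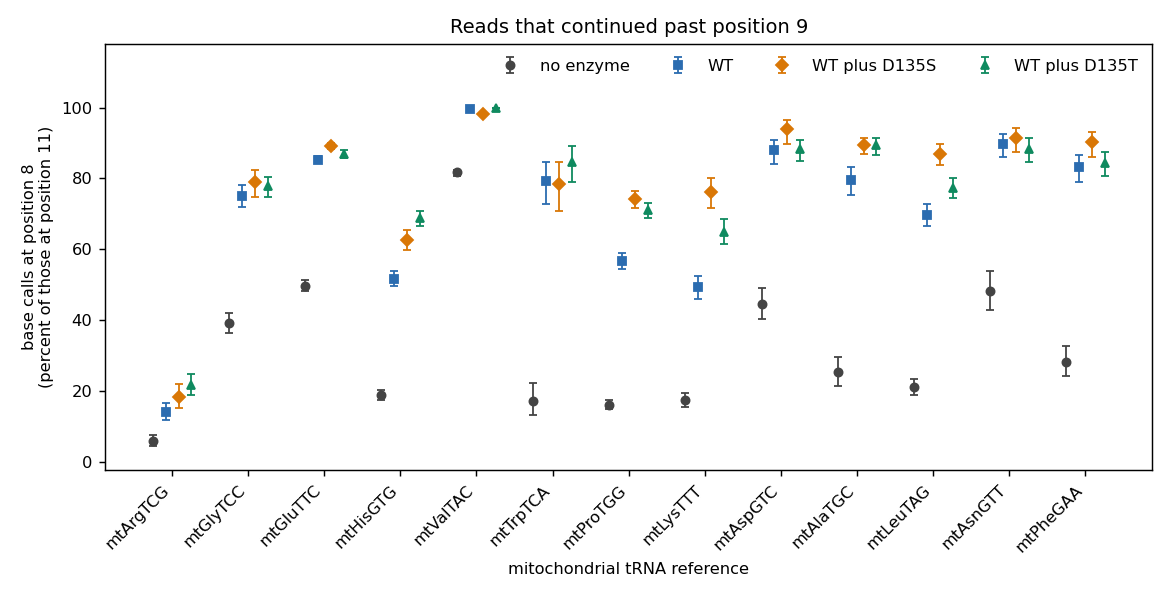
Base calls at position 8 as a percent of those at position 11 (y axis) for the 13 references (x axis, in the order of the no-enzyme mutation rate) in the 4 libraries, with 95% Wilson intervals as bars. The no-enzyme point is the lowest of each reference, and mtArgTCG stays between 13.9% and 21.6% with enzyme.

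Some members had lower rates in the mixtures than with WT alone. WT plus D135S was called lower than WT at 4 of 11 sites, mtGluTTC, mtHisGTG, mtLysTTT and mtValTAC, against 32.7% of all positions tested. WT plus D135T was called lower at 5 of 11, the same 4 and mtArgTCG, against 32%. In mtAsnGTT, mtPheGAA, mtGlyTCC and mtLeuTAG the WT rate was 0.0183, 0.0169, 0.0379 and 0.0324, below the smallest difference of 0.05. No mixture could be called lower at those sites, so the counts cannot be weighed directly against the shares. Of the 4 sites called with both mixtures, the largest differences from WT were in mtHisGTG and mtLysTTT. In mtLysTTT, D135S minus WT was -0.112 (95% Newcombe interval -0.149 to -0.0742, adjusted p = 9.07e-08, Fisher's exact test) and D135T minus WT was -0.0899 (-0.128 to -0.0528, adjusted p = 8.66e-06). In mtHisGTG the differences were -0.108 (-0.135 to -0.0798, adjusted p = 1.80e-12) and -0.122 (-0.147 to -0.0976, adjusted p = 3.00e-23, Fisher's exact test). In mtArgTCG, D135T minus WT was -0.117 (-0.203 to -0.0280, adjusted p = 0.0240) and D135S minus WT was -0.0944 (-0.195 to 0.00978, adjusted p = 0.139, Fisher's exact test). In mtProTGG the D135S mixture differed from WT by -0.0425 (-0.0617 to -0.0232, adjusted p = 5.79e-05, Fisher's exact test), which is under the smallest difference of 0.05. In mtTrpTCA, which was not tested, the differences were 0.00797 (-0.0891 to 0.110) for D135S and -0.0144 (-0.103 to 0.0716) for D135T. None of the 11 sites was called higher in a mixture than with WT, where 7.67% of all positions were higher with D135S and 6.47% with D135T. The rate was above that of WT at 2 of the 11 with D135T, mtGlyTCC and mtLeuTAG, and at 0 with D135S. In mtGlyTCC, D135T minus WT was 0.0295 (0.00394 to 0.0546, unadjusted p = 0.0300, adjusted p = 0.0537, Fisher's exact test).

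By the rule for calls, the D135S and D135T mixtures were not told apart at A9. Of the 11 sites, 0 were called in either direction by Fisher's exact test, against 2.56% of all positions lower with D135T and 2.9% higher. Outside mtArgTCG, the highest rate at these sites was 0.0667 with D135S and 0.0674 with D135T. A difference of 0.05 could hardly be reached there, so the lack of calls says little. The adjusted p was under 0.05 at 1 site, mtGluTTC, where D135T minus D135S was 0.0205 (0.0120 to 0.0293, adjusted p = 3.26e-05, Fisher's exact test). The unadjusted p was under 0.05 at 4 sites, all of them higher with D135T, and the difference was above 0 at 8 of the 11. The narrowest interval was that of mtValTAC, -0.00737 to 0.00228 around -0.00254, and the widest was that of mtArgTCG, -0.120 to 0.0735 around -0.0223. A missed threshold does not show that the mixtures act alike at the thinly covered sites, and in mtGluTTC their Wilson intervals did not overlap.

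**Figure D4:**
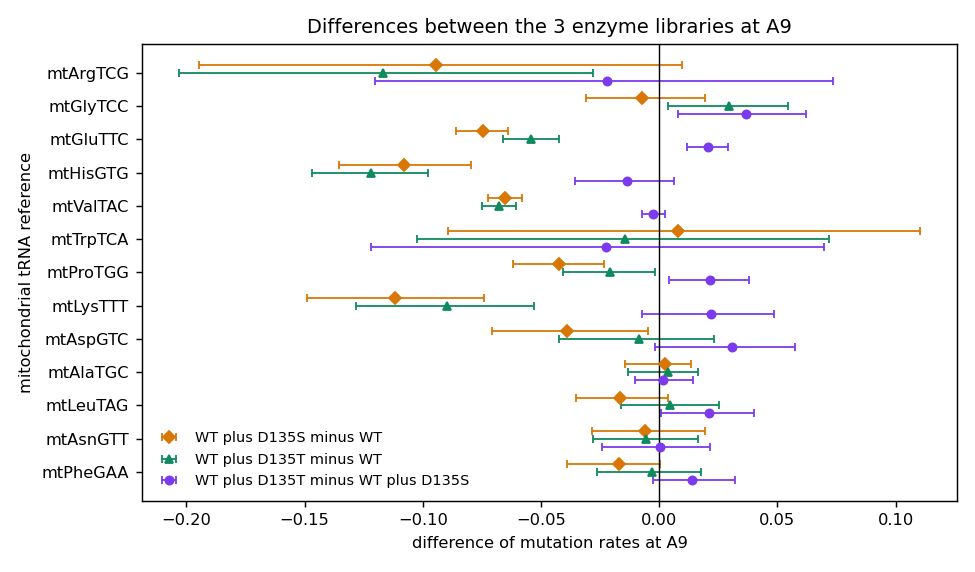
Difference of mutation rates at A9 (x axis) between pairs of the 3 enzyme libraries for the 13 references (y axis), with 95% Newcombe intervals as bars and a line at 0. The points of mtHisGTG and mtLysTTT for both mixtures minus WT lie left of 0, between -0.0899 and -0.122, and the points for D135T minus D135S lie between -0.0224 and 0.0367.

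Beside A9, 57 positions of the 13 references were tested. Against no enzyme, 6 were lower and 19 higher with WT, 8 and 23 in the D135S mixture, and 10 and 22 in the D135T mixture. The share of lower positions was 10.5%, 14.04% and 17.5%, where 33.6%, 38% and 37.6% of all positions tested were lower. The share of higher positions was 33.3%, 40.4% and 38.6%, where 14%, 20.3% and 19.6% of all positions tested were higher. A position could pass the minimum rate through an enzyme library alone, which favoured a call of higher at such positions, among all references as well. The higher positions lay mostly at the 5′ end, since of the 32 positions tested among the first 5 bases 13, 16 and 17 were higher. Positions outside the 12 with the highest rate were named after their values were seen.

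Position 37, next to the anticodon on its 3′ side, is where the methyltransferase TRMT5 writes m1G in some mitochondrial tRNAs. It was G in 3 of the 13 references and A in the other 10. The bases around it are given because the anticodon sets the place, with G37 in capitals.
mtAlaTGC: tgatttgcGttcag
mtLeuTAG: ggtcttagGcccca
mtProTGG: agctttggGtgcta
In mtLeuTAG this G, at position 36 from the 5′ end, had a mutation rate of 0.603 with no enzyme, 0.542 in the WT library, 0.0946 in the D135S mixture and 0.321 in the D135T mixture. In mtAlaTGC the G at position 34 had 0.449, 0.443, 0.0876 and 0.197. In mtProTGG the G at position 35 had 0.224, 0.179, 0.0269 and 0.0692. In each of the 3 tRNAs the rate stayed high with WT alone and was lowest with D135S. WT minus no enzyme was called at mtLeuTAG only (-0.0607, adjusted p = 0.00555, Fisher's exact test), and both mixtures were called lower than WT in all 3. In mtProTGG the WT interval (0.165 to 0.194) also lay below that with no enzyme (0.211 to 0.237), but the rates were less than the smallest difference of 0.05 apart. D135T minus D135S was 0.227 in mtLeuTAG (95% Newcombe interval 0.192 to 0.259, adjusted p = 1.09e-30), 0.110 in mtAlaTGC (0.0802 to 0.139, adjusted p = 2.11e-11) and 0.0424 in mtProTGG (0.0302 to 0.0540, adjusted p = 1.74e-09, Fisher's exact test), the first 2 being called. The A at position 37 of the other 10 had rates between 0 and 0.116 with no enzyme, and mtTrpTCA, at 0.116, 0.179, 0.168 and 0.149, was the highest.

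Outside the anticodon loop, 4 adenosines beside A9 were called lower with WT alone, namely A7 of mtLeuTAG and of mtLysTTT, given above with the deletions, A54 of mtLysTTT and A16 of mtArgTCG. The lysine tRNA carries an A in its T loop, 19 bases before the last A of CCA, where TRMT61B is known to write m1A58. Positions 46 to 65 of mtLysTTT are shown with this A54 in capitals, because it did not lie at the place that the length rule gave for the T loop.
mtLysTTT: gagaaccaAcacctctttac
The rate at A54 was 0.270 with no enzyme, 0.0315 with WT, 0.00703 in the D135S mixture and 0.0137 in the D135T mixture. WT minus no enzyme was -0.238 (-0.258 to -0.219, adjusted p = 5.03e-122, Fisher's exact test). Among the 6 members with A at the place 18 bases before the last A, the rate was at most 0.00427 in any library. A16 of mtArgTCG had rates of 0.104, 0.0119, 0.00933 and 0.0117, where WT minus no enzyme was -0.0923 (-0.114 to -0.0721, adjusted p = 6.19e-18, Fisher's exact test). T6 of mtAsnGTT had 0.105 with no enzyme and between 0.0218 and 0.0356 with enzyme, and was called lower in each enzyme library.

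G10, the base on the 3′ side of A9, moved in the opposite direction in several members. It was tested in 6 of the 13 references, and 5 of them were called higher in each enzyme library than with no enzyme, where 14%, 20.3% and 19.6% of all positions tested were higher. In mtLeuTAG, mtTrpTCA and mtProTGG, G10 reached the tested rate of 0.1 only in the enzyme libraries. Their selection thus favoured a call of higher, and the count of 5 cannot be weighed against the shares. Of those that reached 0.1 with no enzyme, mtArgTCG and mtHisGTG were called higher and mtAspGTC was not. In mtArgTCG the rate was 0.531 with no enzyme, 0.796 in the WT library, 0.802 in the D135S mixture and 0.738 in the D135T mixture, with T read in at least 98.8% of the substituted calls. In mtLeuTAG it was 0.0371, 0.205, 0.314 and 0.234, and in mtTrpTCA 0.0159, 0.252, 0.260 and 0.228, with A read most in both. In mtHisGTG it was 0.108, 0.182, 0.252 and 0.185, and in mtProTGG 0.0777, 0.144, 0.178 and 0.152, with T read most in both. The sixth, mtAspGTC, had 0.377, 0.315, 0.370 and 0.384, read as A, and was not called in any comparison. Its share of deletions at G10 was 0.00821 with no enzyme and 0.0499, 0.0769 and 0.0970 with enzyme. That of mtTrpTCA was likewise 0.00397 with no enzyme and 0.0592, 0.0631 and 0.0795 with enzyme. The median mutation rate at G10 over the 13 references was 0.0411 with no enzyme and 0.0869, 0.0791 and 0.0802 with enzyme. The percent of reads that continued past position 9 rose in the same members, and its part in the rates at G10 was not tested.

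**Figure D5:**
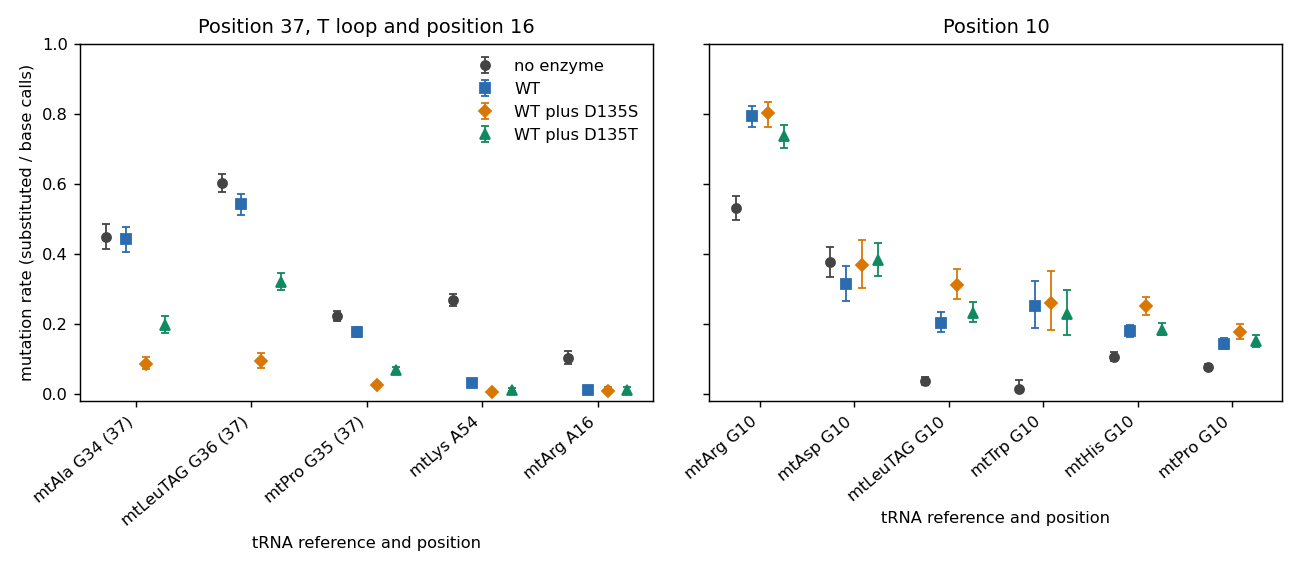
Mutation rate (y axis) at named positions of the members in the 4 libraries, with 95% Wilson intervals as bars, for position 37 of 3 references, A54 of mtLysTTT and A16 of mtArgTCG (left) and G10 of 6 references (right). At position 37 the WT points stay near the no-enzyme points and the D135S points are the lowest, and at G10 5 of the 6 references have their lowest point with no enzyme. G10 of mtLeuTAG, mtTrpTCA and mtProTGG passed the minimum rate only through the enzyme libraries.

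The 12 positions with the highest rate in any library included 8 among the first 5 bases. They were A3T (0.643 to 0.831 over the libraries) and T2G (0.717 to 0.781) of mtHisGTG, G3C of mtValTAC (0.734 to 0.829), G3C of mtProTGG (0.589 to 0.711), T4A (0.524 to 0.711) and A2T (0.347 to 0.559) of mtLysTTT, G3A of mtAsnGTT (0.565 to 0.687) and C4T of mtGluTTC (0.396 to 0.576). Each change names the reference base, its position from the 5′ end and the base read most with no enzyme. None of the 8 was lower with WT or in the D135S mixture than with no enzyme, and 4 and 5 of them were higher. With WT plus D135T, 2 were lower and 4 higher. Of all positions tested, 33.6%, 38% and 37.6% were lower with WT, D135S added and D135T added, and 14%, 20.3% and 19.6% were higher. Ranking by the highest rate in any library favours positions that are high with enzyme, so the counts cannot be weighed directly against these shares.

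Among the other 4 positions of these 12 were G36 of mtLeuTAG and G10 of mtArgTCG, given above. A43G of mtLeuTAG had rates of 0.977 to 0.993 in the 4 libraries, with G in 99.9% of the substituted calls with no enzyme, and was not called in any comparison. G23A of mtArgTCG had 0.569, 0.546, 0.539 and 0.568 and was not called in any comparison. It lies at position 26, where the methyltransferase TRMT1 acts on the guanosine of some tRNAs, and the 3 other members with G there had rates of at most 0.137.

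Among the other 24 tested positions of the first 5 bases, 9 (37.5%) were higher with WT than with no enzyme, 11 (45.8%) in the D135S mixture and 13 (54.2%) in the D135T mixture. Of all positions tested, 14%, 20.3% and 19.6% were. The last 4 bases held 4 tested positions, in 3 references, with highest rates of 0.109 to 0.171 and no call in any comparison. T31 of mtGluTTC, the first base of the anticodon, was higher in the D135S mixture (0.156) than with no enzyme (0.0987), WT (0.105) and WT plus D135T (0.102). A38 of mtPheGAA was called higher in the D135S mixture (0.107) than with no enzyme (0.0549). It passed the minimum rate of 0.1 only through that mixture, so its selection favoured this call. Of the 57 positions, 3 (5.26%) were lower and 5 (8.77%) higher with D135S than with WT, where 32.7% and 7.67% of all positions tested were. With D135T, 7 (12.3%) were lower and 3 (5.26%) higher than with WT, where 32% and 6.47% of all were. Between the mixtures, 6 (10.5%) were lower and 4 (7.02%) higher with D135T than with D135S, where 2.56% and 2.9% of all were.

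Position 9 of the other mitochondrial tRNAs gave a different picture with WT alone at the sites tested. Apart from mtThr, 5 carry G and 3 carry C or T at position 9. Among the G9 references, 3 passed the minimum of base calls and rate, mtCysGCA, mtLeuTAA and mtTyrGTA, and 0 of 3 were called lower with WT, while 3 of 3 were lower in each mixture. In that order the mutation rates were 0.163, 0.357 and 0.276 with no enzyme and 0.147, 0.334 and 0.235 with WT, 0.0177, 0.0376 and 0.0172 in the D135S mixture, and 0.0515, 0.149 and 0.0482 in the D135T mixture. The untested mtIleGAT, on 52 base calls with no enzyme, went from 0.269 to 0.144 with WT, and had 0.00459 and 0.0724 in the mixtures. The untested mtGlnTTG had 0.0346 with no enzyme, 0.0321 with WT, and 0.00755 and 0.0276 in the mixtures. Over the 5 G9 references the median percent of reads that continued past position 9 was 29.7% with no enzyme and 40.01%, 91.5% and 67.0% with enzyme, whereas at A9 it had reached 79.2% with WT. The difference between A9 and G9 itself was not tested, since the tRNAs are not replicates. The 2 references with C or T at position 9 and at least 100 base calls in each library, which offer no purine to TRMT10C, had rates of at most 0.0258 in any library.

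Against the cytosolic A58, the m1A site of the T loop, the median at A9 of the mitochondrial tRNAs was higher with no enzyme and lower with WT. The median rate over 146 cytosolic references with A58 and at least 100 base calls was 0.594 with no enzyme, 0.172 with WT, 0.0393 in the D135S mixture and 0.0380 in the D135T mixture, beside 0.738, 0.0755, 0.0257 and 0.0476 at A9. These references include near-identical gene copies that share reads, and no test was run across them. Of the 14 cytosolic references with A9 and at least 100 base calls, only 2 aspartate tRNAs had a rate of at least 0.1, and these kept 0.465 and 0.590 in the D135S mixture from 0.719 and 0.834 with no enzyme.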

How the data were processed

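Counts of base calls per reference position came from 4 tRNA-seq libraries of HEK293T total RNA. Per the paper's methods, the authors collapsed duplicate reads by their molecular identifiers, sorted reads to samples by barcode, mapped the reads to tRNA sequences ending in CCA, and counted bases of quality 20 or more. The deposited counts are not normalized. The submitters' processing notes name cutadapt, Bowtie2, SAMtools 0.1.18 and the build hg19. The deposited mutation rate is a fraction, which equalled substituted reads over depth (deletions included) at 67713 of 67713 positions.

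Members, lists and tests were chosen with earlier results of these data known. Each member is named. At other positions, the 12 with the highest rate are named by rule. Mutation rates were computed as substitutions over base calls. Positions with at least 100 base calls in each library and a rate of at least 0.1 in any library were tested by Fisher's exact test (two-sided), adjusted by Benjamini-Hochberg over all 587 such positions, and called at an adjusted p under 0.05 and a difference of at least 0.05. This test was checked on simulated counts with a known difference, larger than the smallest one called. Those counts varied by counting error only, so the check does not cover variation between libraries. Positions 26, 32, 34 and 37 were placed from the anticodon. References were placed by exact search in GRCh37 and named by GENCODE. Alternatives were 20 or 500 base calls, the minimum asked of the compared pair only, other thresholds of p, difference and rate, deletions counted with substitutions, and the authors' rate. Counting deletions along the run of A at A9 was added after seeing the data. No position held more than 8027 reads. Calculations ran in Python 3.11.15 with SciPy 1.17.1 and NumPy 2.4.6, and figures in Matplotlib 3.10.9.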

Additional observations from a re-analysis of the deposited data

How the results depend on the processing

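With 1 library per treatment, depth and counting error are the only error measured, and treatment, library and sequencing order cannot be told apart. No paired analysis was possible because each treatment has 1 library, and no replicate could be left out. The call that A9 was lower with each enzyme library than with no enzyme held for 13 references at 20 base calls, 12 with deletions counted, 11 under the other settings and 4 of 4 tested at 500 base calls, where fewer sites were left. Against WT, the lower sites with D135S went from 4 to 2 at a smallest difference of 0.1 and to 3 at 500 base calls. Those with D135T went from 5 to 2 at that difference, to 3 at 500 base calls and to 4 at an adjusted p under 0.001. With no smallest difference, 1 site was higher with D135T than with D135S. At 500 base calls the median rate at A9 was 0.813 with no enzyme, 0.0974 in the WT library and 0.0311 in the D135S mixture, over fewer references. With deletions counted it was 0.0297 with WT plus D135S. With deletions placed along the run of A, chosen after seeing the data, it was 0.794 with no enzyme and 0.0297 with WT plus D135S. With position 5 over position 14, the median percent of reads that continued was 67.2% in the WT library, 78.7% in the D135S mixture and 64.7% in the D135T mixture. All of these kept the order of no enzyme against the enzyme libraries, but the last put D135T below WT, where position 8 over position 11 had put it above. Of the 44 single rates at A9, 3 left their interval with deletions counted and 3 with the authors' rate.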
